A study of Homo sapiens with 18 samples.

Results

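Palbociclib (PD0332991), an inhibitor of the kinases CDK4 and CDK6, was given to SJSA-1 cells for 24 h and withdrawn for the next 6 h, and the transcriptome was then compared with that of cells given the solvent DMSO. The comparison rests on 6 of the 18 RNA-seq libraries of the series, the 3 labelled PD24 and the 3 labelled DMSO, which were chosen by their titles. SJSA-1 is a single human osteosarcoma line with amplified MDM2 and CDK4. PD24 cells received PD0332991 at 10 µM for 24 h. A further 3 libraries, labelled PD30, came from cells kept in 10 µM PD0332991 for 30 h with no withdrawal, and they are set beside PD24 to show what still differed from DMSO after withdrawal and what differed in the opposite sense. The other 9 libraries, in all of which the MDM2 inhibitor Nutlin was present, were not used. The study's legends call the replicates biological, while the labels do not say whether they were separate cultures, and p-values measure the spread between these libraries. They also do not say whether the medium of DMSO or PD30 cells was changed when PD24 cells lost the drug, so drug removal and fresh medium cannot be told apart. No library was taken after 24 h with the drug still present, so PD24 and PD30 differ both in the withdrawal and in the length of exposure. Both PD24 against DMSO and PD30 against DMSO use the same 3 DMSO libraries.

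CDK4 and CDK6, bound to D-type cyclins, phosphorylate the retinoblastoma protein RB1 in early G1 and so release E2F transcription factors, which drive the genes of G1/S and DNA replication. Genes of G2 and mitosis are driven later, by the MuvB core with MYBL2 and FOXM1, and are repressed in resting cells by the DREAM complex, which contains MuvB, RBL1 or RBL2 and E2F4. Inhibition of CDK4 and CDK6 in cells with intact RB1 causes arrest in G1, and cells released from it have to pass G1/S before they reach mitosis.

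Total counts were 23720994 to 40231041 in the 6 libraries, and 20297 of 23368 genes had at least 1 count there. The first principal component, with 61.9% of the variance, separated DMSO (-74.7 to -69.4) from PD24 (26.0 to 32.9) and PD30 (40.3 to 42.7), and the second, with 20.3%, separated PD24 from PD30. No replicate pair agreed within counting noise. Of the marker lists for cell types other than mesenchymal ones, the summed level was 24.5 to 33.7 CPM (counts scaled to a common library size) for leukocyte genes in DMSO, 34.2 to 37.5 in PD24 and 31.8 to 45 in PD30, with the pan-leukocyte gene PTPRC at or under the limit that 3 counts allow. Epithelial genes summed to 192 to 266 CPM in DMSO, 145 to 246 in PD24 and 121 to 155 in PD30, and endothelial genes to 4.36 to 5.9, 6.73 to 9.75 and 7.99 to 10.6. Mesenchymal genes, which mark the labelled cell type, summed to 5295 to 5859 CPM in DMSO, 4952 to 5261 in PD24 and 4024 to 4074 in PD30. Osteoblast genes summed to 2876 to 4520, 4603 to 6470 and 4008 to 4982 CPM, and the part of these marker levels in the results was not tested.

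After withdrawal, 696 genes were higher and 1202 lower than in DMSO by at least 1 on the log2 scale at an adjusted p under 0.05, which was 4.61% and 7.96% of 15094 genes tested (quasi-likelihood test of edgeR, p-values adjusted after Benjamini and Hochberg). With the adjusted p alone, 2639 (17.5%) were higher and 3142 (20.8%) lower. Under continuous drug, 871 (5.76%) of 15125 genes were higher and 1434 (9.48%) lower than in DMSO with both thresholds, and 3468 (22.9%) and 3839 (25.4%) with the adjusted p alone. Between PD24 and PD30, 618 genes (4.07% of 15171) were higher and 519 (3.42%) lower in PD24 with both thresholds, against 1963 (12.9%) and 1853 (12.2%) with the adjusted p alone. Leaving out DMSO replicate 2 brought the genes higher in PD24 than DMSO at the adjusted p alone to 1556, and leaving out PD30 replicate 1 brought the last pair of counts to 1115 and 1063. Without PD30 replicate 3, 1251 genes were higher in PD24 than PD30. The labels state no pairing, but PD24 and PD30 libraries of the same replicate number were treated as pairs in an alternative, from correlations in these same data. With the number as a block 3120 genes were higher and 2987 lower in PD24 than PD30, whereas the main counts ignore any such pairing. Below, the shares over all genes beside the gene lists are those of the main fits. They do not apply to list counts from the block or with a library left out.

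Genes called in PD24 were then sorted by their call in PD30 against DMSO, with both thresholds in each comparison. Of the 1202 lower genes, 884 (73.5%) were lower in PD30 too, and 814 of these had no call between PD24 and PD30. Of the 696 higher genes, 296 (42.5%) were higher in PD30 too, and 270 of these had no call between the drug groups. Genes not tested between the drug groups are counted among those without a call. A further 379 of the higher genes had no call in PD30 against DMSO, 53 of them because they were not tested there, and 154 of the 379 were higher in PD24 than PD30. For the lower genes, 314 had no call in PD30, and 100 of them were lower in PD24 than PD30. Changes in the opposite sense were few: 21 genes were higher in PD24 and lower in PD30 than in DMSO, and 4 were lower in PD24 and higher in PD30. All 25 also passed the test between PD24 and PD30. This adds no support, because the sorting had already placed the 2 drug groups on opposite sides of the same DMSO libraries. Without DMSO replicate 1 the first count was 12, and without DMSO replicate 2 it was 13, while the second was 2 without DMSO replicate 3, 7 without PD24 replicate 1 and 10 without PD24 replicate 3.

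Of the gene lists, the genes of mitosis were the most strongly reduced by their median, and most stood no higher after 6 h without drug than under continuous drug. All 69 tested genes of the G2 and mitosis list were lower in PD24 than in DMSO, with a median log2 change of -5.32, beside a median of 0.02 over all genes tested. In PD30 the same 69 were lower, with a median of -5.14. In bulk RNA, fewer cells in G2 and mitosis and less RNA of these genes per cell cannot be told apart. Promoters are shown for members of this list and of the G1/S list because both groups are classically told apart by promoter elements. The CHR element (searched as TTTGAA) and the CCAAT box (CCAAT) are the motifs of genes driven in G2, and E2F sites (searched as TTTGGCGC, TTTCCCGC, TTTCGCGC or TTTGCCGC) those of G1/S genes. PLK1, the kinase that drives mitotic entry and spindle formation, and CCNB2, a B-type cyclin that activates CDK1, are given by their RefSeq promoters (GRCh38.p14, PLK1 at chr16:23678639-23678938 on the plus strand, CCNB2 at chr15:59104896-59105195 on the plus strand), with TTTGAA and CCAAT on either strand in capitals.
PLK1: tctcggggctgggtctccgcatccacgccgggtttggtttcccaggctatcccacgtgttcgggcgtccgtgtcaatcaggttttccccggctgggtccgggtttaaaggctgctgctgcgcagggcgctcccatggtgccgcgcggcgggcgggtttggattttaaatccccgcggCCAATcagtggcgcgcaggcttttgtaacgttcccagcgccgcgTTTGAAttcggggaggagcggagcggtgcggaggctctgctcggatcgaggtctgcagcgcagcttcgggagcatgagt
CCNB2: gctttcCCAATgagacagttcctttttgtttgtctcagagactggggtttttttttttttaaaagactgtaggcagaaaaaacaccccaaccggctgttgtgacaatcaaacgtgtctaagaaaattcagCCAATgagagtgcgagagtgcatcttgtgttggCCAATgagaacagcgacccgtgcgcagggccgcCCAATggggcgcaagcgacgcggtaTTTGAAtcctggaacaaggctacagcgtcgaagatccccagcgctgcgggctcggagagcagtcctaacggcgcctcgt
The CHR match began 29 bases before the listed start in both. Of the 69 genes, 58 had a promoter in the RefSeq table, and 40 of these (69%) held TTTGAA and 40 (69%) CCAAT, against 15.4% and 35.7% of 27305 promoters. An E2F motif was in 3 (5.17%), against 3.33% of all promoters. A match is a description of letters, not a site or a cause.

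MKI67, the proliferation antigen Ki-67 (GRCh37, chr10:129894923-129924687), stood at 646, 669 and 754 CPM in the DMSO libraries, at 3.59, 3.37 and 4.63 in PD24 and at 6.49, 4.67 and 4.37 in PD30. The PD24 and PD30 values overlapped, and both lay far under DMSO. Its log2 change was -7.43 ± 0.15 (SE, n = 3 per group, adjusted p = 4.7e-09) in PD24 against DMSO and -0.39 ± 0.21 (adjusted p = 0.2) in PD24 against PD30. PLK1 stood at 185, 168 and 150 CPM in DMSO, at 2.37, 3.15 and 2.28 in PD24 and at 4.33, 3.35 and 3.72 in PD30, with a log2 change of -5.99 ± 0.17 (adjusted p = 1.7e-08) against DMSO and -0.53 (adjusted p = 0.087) against PD30. CCNB1, the main mitotic cyclin, went from 299, 317 and 317 CPM in DMSO to 14.1, 14.2 and 10.7 in PD24, beside 12.7, 12.7 and 10.8 in PD30. TOP2A, the topoisomerase that untangles sister chromatids, had 1104, 1144 and 1200 CPM in DMSO, 12.8, 8.78 and 8.76 in PD24 and 24.3, 16.2 and 13.3 in PD30. It was lower in PD24 than in PD30 by -0.81 (adjusted p = 0.037), a call lost without PD24 replicate 2 or 3 or PD30 replicate 1 or 2. Among the lowest p in the list were PRC1 (-5.59), which bundles the central spindle, NUSAP1 (-6.56) and the kinesin KIF2C (-6.28), which act on spindle microtubules, and the mitotic kinase PBK (-6.64). AURKB, the kinase of the chromosomal passenger complex, fell by 7.06, and the kinesins KIF18B, KIF15 and KIF20A fell by 7.36, 7.27 and 7.04, all among the 10 largest falls in the transcriptome.

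A few mitotic genes were lower after withdrawal than under continuous drug, at a share near that over all genes. At the adjusted p, 9 of the 69 (13%) were lower and 3 (4.35%) higher in PD24 than in PD30. Over all genes the shares were 12.2% and 12.9%. With the replicate block 13 were lower and 6 higher. Without PD30 replicate 1 the lower count was 4, and without PD24 replicate 3 the higher count was 6. CCNB2 stood at 110, 109 and 107 CPM in DMSO, at 2.5, 3.11 and 2.77 in PD24 and at 5.28, 4.61 and 3.58 in PD30, so that PD24 lay under PD30 in every library, with a log2 difference of -0.66 ± 0.20 (adjusted p = 0.041). CDC25C, the phosphatase that activates CDK1, differed by -1.35 (adjusted p = 0.028). FOXM1, a transcription factor of the G2 programme, was at 249, 284 and 271 CPM in DMSO, 29.3, 40.4 and 41 in PD24 and 70, 59.1 and 50.5 in PD30, a difference between the drug groups of -0.68 ± 0.17 (adjusted p = 0.017) that lost its call without PD24 replicate 1 or PD30 replicate 1 (highest adjusted p 0.065). The 3 higher genes were CCNF, CENPE and CKS2. CCNF, cyclin F, whose ubiquitin ligase degrades cell-cycle regulators, had 78.3, 75.2 and 71.5 CPM in DMSO, 7, 7.41 and 6.01 in PD24 and 2.37, 2.54 and 2.15 in PD30, with no overlap and a log2 difference of 1.55 ± 0.17 (adjusted p = 0.00061) from PD30. CENPE, a kinetochore motor, was 0.86 higher (adjusted p = 0.011) and CKS2, a subunit of cyclin-dependent kinases, 0.58 higher (adjusted p = 0.015).

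Genes of G1/S and DNA replication were also lower than in DMSO, but 29 of them stood closer to DMSO in PD24 than in PD30. Of 63 tested members, 62 were lower in PD24 than in DMSO, with a median log2 change of -2.95, and 62 were lower in PD30, with a median of -3.49. The member without a call in PD24 was E2F3, an activating E2F, at -0.14 ± 0.12 (adjusted p = 0.36). Between PD24 and PD30, 29 of 62 tested members were higher in PD24 and 0 lower (median 0.47), beside 12.9% and 12.2% of all genes. That count of higher members was 14 without PD24 replicate 1, 15 without PD30 replicate 1, 19 without PD30 replicate 2 and 15 without PD30 replicate 3. Over all genes the higher count fell too, from 1963 to 1441, 1115, 1393 and 1251 in the same order. With the replicate block 35 members were higher and 3 lower. The promoters of CDT1, which licenses replication origins, CDC25A, the phosphatase that activates CDK2, and POLE2, a subunit of DNA polymerase epsilon, are given because these members stood higher in PD24 than PD30 and hold an E2F motif near the start (RefSeq, GRCh38.p14). CDT1 is at chr16:88803539-88803838 on the plus strand, CDC25A at chr3:48188368-48188667 on the minus strand and POLE2 at chr14:49688165-49688464 on the minus strand, and capitals mark the E2F motif on either strand.
CDT1: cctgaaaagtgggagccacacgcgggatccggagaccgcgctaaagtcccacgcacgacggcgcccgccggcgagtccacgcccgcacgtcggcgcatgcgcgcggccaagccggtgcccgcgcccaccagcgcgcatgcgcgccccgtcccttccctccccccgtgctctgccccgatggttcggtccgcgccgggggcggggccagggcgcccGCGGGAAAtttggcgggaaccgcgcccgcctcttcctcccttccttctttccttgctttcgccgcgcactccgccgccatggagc
CDC25A: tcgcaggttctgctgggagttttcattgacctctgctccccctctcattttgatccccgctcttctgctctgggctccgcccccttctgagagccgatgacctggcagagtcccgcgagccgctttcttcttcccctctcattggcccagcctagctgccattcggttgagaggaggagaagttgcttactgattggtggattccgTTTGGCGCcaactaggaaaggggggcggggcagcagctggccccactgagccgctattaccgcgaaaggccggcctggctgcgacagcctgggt
POLE2: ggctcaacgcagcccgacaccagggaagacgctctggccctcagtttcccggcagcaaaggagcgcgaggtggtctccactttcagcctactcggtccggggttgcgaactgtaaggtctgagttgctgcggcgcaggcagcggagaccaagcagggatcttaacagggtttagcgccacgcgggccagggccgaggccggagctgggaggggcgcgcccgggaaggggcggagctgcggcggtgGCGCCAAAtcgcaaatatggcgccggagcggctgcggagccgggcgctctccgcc
The motif began 35, 44 and 5 bases before the listed start of CDT1, CDC25A and POLE2. An E2F motif was in 26 of 54 matched promoters of the list (48.1%), TTTGAA in 4 (7.41%) and CCAAT in 30 (55.6%). Among the members higher in PD24 than PD30, 15 of 25 matched promoters (60%) held an E2F motif, and among the others 11 of 29 (37.9%), which are shares without a test.

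MCM5, a subunit of the replicative helicase (GRCh37, chr22:35796127-35821424), stood at 158, 137 and 133 CPM in DMSO, at 22.3, 18.6 and 10.2 in PD24 and at 6.05, 7.6 and 5.34 in PD30. Each PD24 library lay above each PD30 library and under each DMSO library. Its log2 change was -3.04 ± 0.26 (adjusted p = 3.1e-05) against DMSO and 1.44 ± 0.28 (adjusted p = 0.0061) against PD30. POLE2 showed the same order at a low level, with 8.75, 9.84 and 9.74 CPM in DMSO, 1.25, 0.895 and 0.965 in PD24 and 0.304, 0.196 and 0.28 in PD30, and a difference from PD30 of 2.01 ± 0.31 (adjusted p = 0.0022). CDC25A went from 33.8, 38.2 and 39.9 CPM in DMSO to 5.11, 5.16 and 3.74 in PD24, above 2.44, 1.45 and 1.57 in PD30 (1.38 ± 0.25, adjusted p = 0.0045). CDT1 went from 39.2, 28.1 and 19.7 to 3.52, 3.58 and 1.44, above 0.812, 1.03 and 0.784 in PD30 (1.70 ± 0.37, adjusted p = 0.01). For all 4 genes PD24 replicate 3 or replicate 2 was the lowest PD24 library, and the PD24 values stayed well under the DMSO range.

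CCNE1, the cyclin that activates CDK2 at G1/S, was the least reduced of the G1/S cyclins tested here, with 20.2, 21 and 22.2 CPM in DMSO, 7.95, 8.61 and 7.15 in PD24 and 3.72, 5.76 and 4.45 in PD30. Its log2 change was -1.39 ± 0.13 (adjusted p = 6.2e-05) against DMSO and 0.78 ± 0.19 (adjusted p = 0.017) against PD30, and the second was lost without PD30 replicate 1 or 3. CCNE2, its paralog, changed by -5.99 in PD24 and -6.99 in PD30, and the difference of 1.00 (adjusted p = 0.023) was lost in 4 alternatives. Of the other members, CCNA2, RRM2, TYMS and ASF1B did not pass between the drug groups. CCNA2, the S-phase and G2 cyclin, stood at 217, 218 and 218 CPM in DMSO, 3.62, 2.77 and 2.9 in PD24 and 5.24, 4.28 and 3.89 in PD30. RRM2, the ribonucleotide reductase subunit that limits deoxynucleotide supply, had 576, 518 and 576 CPM in DMSO and 5.41, 4.39 and 4.16 in PD24, a change of -6.87. TYMS, thymidylate synthase, changed by -5.72 and the histone chaperone ASF1B by -6.39. E2F8, an atypical E2F that represses other E2F targets, had the largest fitted fall of all (-8.60), from 28.3, 28.9 and 35.9 CPM to 0.135, 0 and 0.0742, which is 4, 0 and 3 reads, so this value depends on the fit. ESCO2, which acetylates cohesin in S phase, and FAM111B, a protease, fell by 8.54 and 8.14. E2F8, ESCO2 and FAM111B were not tested between the drug groups.

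**Figure D1:**
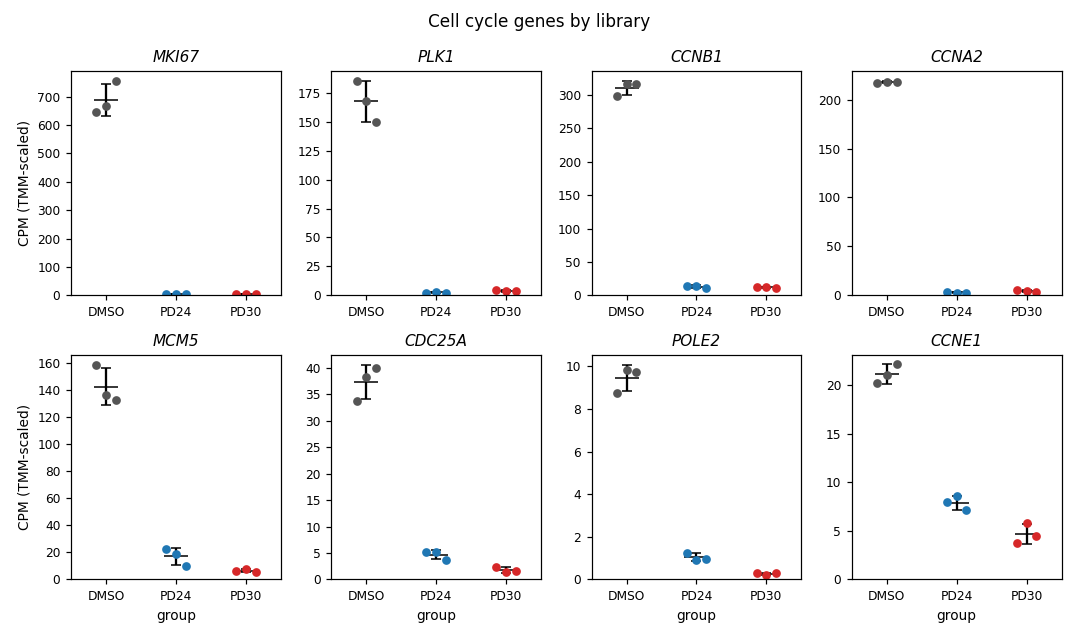
CPM of 8 cell-cycle genes (vertical axes, linear from 0) in the 3 DMSO, 3 PD24 and 3 PD30 libraries; points are libraries, bars means and error bars SD (n = 3). MKI67 stands at 3.37 to 4.63 CPM in PD24 and 4.37 to 6.49 in PD30, while MCM5 stands at 10.2 to 22.3 in PD24 and 5.34 to 7.6 in PD30.

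Within the CDK4/6-RB module itself, 15 of 27 tested members (55.6%) were lower and 5 (18.5%) higher in PD24 than in DMSO (median -0.68). Over all genes 20.8% were lower and 17.5% higher. The module's counts were the same in PD30 (median -0.57), beside 25.4% and 22.9% of all genes. The higher shares were thus near those over all genes. Between PD24 and PD30, 3 (11.1%) were higher and 8 (29.6%) lower, beside 12.9% and 12.2% of all genes. The lower count was 5 without PD24 replicate 1 or 2 or PD30 replicate 3 and 4 without PD30 replicate 1 or 2. Under the replicate block it was 9, with 6 higher. Among the D-type cyclins, CCND2 had 29.8, 26.8 and 24.8 CPM in DMSO, 91, 63.7 and 70 in PD24 and 128, 116 and 154 in PD30. PD24 lay between the other groups in every library, with a change of 1.5 ± 0.15 (adjusted p = 7.8e-05) against DMSO and -0.80 ± 0.15 (adjusted p = 0.0057) against PD30. CCND3, the third D-type cyclin, was at -0.05 (adjusted p = 0.82) in PD24 and -0.67 (adjusted p = 0.0043) in PD30.

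The INK4 inhibitors, which bind CDK4 and CDK6, moved in different directions. CDKN2B, p15, had 33.3, 31.3 and 26.9 CPM in DMSO, 75.5, 87.1 and 80.4 in PD24 and 33, 41.1 and 43.1 in PD30. The PD24 libraries stood above all others, with a change of 1.44 ± 0.12 (adjusted p = 2.1e-05) against DMSO and 1.07 ± 0.13 (adjusted p = 0.00069) against PD30; CDKN2B overlaps CDKN2B-AS1 on the other strand. CDKN2D, p19, went the other way, from 34.5, 36.8 and 34.6 CPM to 5.55, 5.62 and 5.27 in PD24, under 14.7, 15.4 and 21.7 in PD30. It was thus further from DMSO after withdrawal (-2.66 ± 0.12, adjusted p = 3.4e-07) than under continuous drug (-1.02 ± 0.15), a difference of -1.63 ± 0.18 (adjusted p = 0.00054). CDKN2C, p18, changed by -2.01 in PD24 and -1.83 in PD30. CDKN2A, which encodes p16 and ARF, was at 0.59 (adjusted p = 0.035), a call lost in 4 alternatives.

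The pocket proteins and their partners were mostly lower. RB1 had 129, 146 and 145 CPM in DMSO, 57.5, 41.8 and 44.2 in PD24 and 62.1, 59.3 and 62.6 in PD30 (-1.52 ± 0.13, adjusted p = 3.7e-05). RBL2, the pocket protein p130 of the DREAM complex, had 77.2, 78.4 and 79.9 CPM in DMSO, 48.8, 39.3 and 55.3 in PD24 and 76.4, 70.4 and 85.1 in PD30. PD24 was lower than DMSO by -0.68 (adjusted p = 0.0024) and than PD30 by -0.67 (adjusted p = 0.0071), whereas PD30 was at -0.01 (adjusted p = 0.92) against DMSO. LIN9, a subunit of the MuvB core, stood closer to DMSO in PD24 than in PD30, with 17, 16.7 and 21.4 CPM in DMSO, 4.03, 2.13 and 2.05 in PD24 and 0.372, 0.867 and 1.01 in PD30 (1.86 ± 0.39, adjusted p = 0.0085 against PD30). CDK2, the kinase partner of cyclins E and A, changed by -3.03 in PD24 and -2.98 in PD30. CKS1B and SKP2, which act together in the degradation of p27, changed by -2.66 and -1.0, and CDKN1B, p27 itself, by -1.15 (adjusted p = 9e-05).

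MYC, the growth-promoting transcription factor, and genes of ribosome biogenesis rose above the DMSO level after withdrawal. MYC (GRCh37, chr8:128747680-128755197, with CASC11 on the other strand) had 43.1, 34.9 and 33.9 CPM in DMSO, 84.5, 90.9 and 75.8 in PD24 and 40.7, 49.3 and 56.2 in PD30. The PD24 libraries did not overlap the others, with a change of 1.20 ± 0.13 (adjusted p = 0.00014) against DMSO and 0.80 ± 0.14 (adjusted p = 0.0035) against PD30. Of 50 tested ribosome biogenesis genes, 24 were higher and 1 lower in PD24 than in DMSO (median 0.37), beside 17.5% and 20.8% of all genes, whereas 2 were higher and 18 lower in PD30 (median -0.14), beside 22.9% and 25.4%. The 2 became 1 without any of the DMSO libraries, PD30 replicate 1 or PD30 replicate 2. Against PD30, 37 of 50 were higher in PD24 and 0 lower (median 0.51), and with the replicate block 46 and 0. The lower gene in PD24 was FBL (-0.36), the methyltransferase of small nucleolar ribonucleoproteins, and its call was lost without DMSO replicate 2.

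NOP16, a nucleolar factor of large subunit assembly, had 42.6, 47.2 and 47.6 CPM in DMSO, 81.8, 89.2 and 83.6 in PD24 and 43.8, 58.1 and 44.8 in PD30 (0.92 ± 0.10, adjusted p = 0.00013 against DMSO). RRP12, which exports pre-ribosomal subunits, had 48.1, 44.4 and 48.3 CPM in DMSO, 81.5, 100 and 94.8 in PD24 and 55.3, 63.7 and 63.5 in PD30 (1.01 ± 0.11, adjusted p = 0.00015). In both, the PD24 libraries stood clear of the other 6. NOB1, which cuts the precursor of 18S RNA, and MYBBP1A, a nucleolar regulator, were 0.86 higher than in DMSO each. NOP56, a core protein of small nucleolar ribonucleoproteins, showed the widest swing among the members described, with 208, 214 and 229 CPM in DMSO, 302, 284 and 330 in PD24 and 140, 138 and 121 in PD30, so that it was 0.53 above DMSO after withdrawal and -0.69 from it under continuous drug. UBTF, the factor that opens ribosomal DNA for RNA polymerase I, was at 0.02 (adjusted p = 0.94) in PD24 and -1.11 (adjusted p = 2.9e-06) in PD30. Promoter motifs of this list were near the background, with an E2F motif in 2 of 40 matched promoters (5%), TTTGAA in 6 (15%) and CCAAT in 13 (32.5%).

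Chaperones stood mainly higher in PD24 than in PD30. Of 24 tested heat shock and chaperone genes, 15 (62.5%) were higher and 1 lower in PD24 than in PD30, beside 12.9% and 12.2% of all genes (18 and 2 with the replicate block). Of 23 tested against DMSO, 8 (34.8%) were higher and 1 lower in PD24, beside 17.5% and 20.8% of all genes. The first count was 5 without DMSO replicate 1 or 2 and 4 without DMSO replicate 3. Over all genes the higher count fell too, from 2639 to 2125, 1556 and 1895 without DMSO replicates 1, 2 and 3. In PD30, 4 (16.7%) were higher and 10 (41.7%) lower of 24, beside 22.9% and 25.4%. HSPA8, the constitutive HSP70, had 2553, 2785 and 2525 CPM in DMSO, 3594, 3477 and 3817 in PD24 and 1786, 1902 and 1514 in PD30, with no overlap between any of the groups (0.50 ± 0.08, adjusted p = 0.0012 against DMSO, -0.59 in PD30). Small nucleolar RNA genes lie within HSPA8. HSPB1, the small heat shock protein HSP27, had 208, 189 and 134 CPM in DMSO, 330, 457 and 271 in PD24 and 154, 206 and 171 in PD30 (1.04 ± 0.22, adjusted p = 0.0055). CRYAB, another small heat shock protein, was higher in both (1.79 and 1.28), and HSPA4L, a relative of HSP110, lower in both (-1.06 and -0.91), and neither passed the test between PD24 and PD30 (0.50 and -0.16).

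Immediate-early genes and targets of growth factor signalling were split. Of 27 tested immediate-early genes, 8 (29.6%) were higher and 6 (22.2%) lower in PD24 than in DMSO, beside 17.5% and 20.8% of all genes. In PD30, 4 (14.8%) were higher and 11 (40.7%) lower, beside 22.9% and 25.4%, and 11 (40.7%) were higher and 3 (11.1%) lower in PD24 than in PD30, beside 12.9% and 12.2%. The 8 fell to 3 without DMSO replicate 2 and 4 without PD24 replicate 1, and the 11 lower in PD30 fell to 7 without DMSO replicate 1, while the 4 higher fell to 2 without DMSO replicate 2. JUN, a subunit of the AP-1 factor, had 90.5, 62.1 and 71.6 CPM in DMSO, 130, 136 and 94.7 in PD24 and 31.5, 38.8 and 42.2 in PD30, so that the groups lay in 3 separate ranges (0.72 ± 0.18, adjusted p = 0.012 against DMSO, -0.99 in PD30). FOSB, another AP-1 subunit, rose by 1.36 (adjusted p = 0.00088) and was at -0.09 (adjusted p = 0.76) in PD30. CTGF, a matricellular target of YAP, had 2359, 2061 and 1960 CPM in DMSO, 3883, 3520 and 2824 in PD24 and 1432, 1966 and 1224 in PD30 (0.72 ± 0.13, adjusted p = 0.0029). EGR1 and FOS, which respond to growth factors within minutes, were lower than in DMSO in both groups, at -1.53 and -1.26 in PD24 and -2.26 and -2.03 in PD30. Of 20 genes of feedback on the ERK pathway, 6 (30%) were higher and 5 (25%) lower in PD24, beside 17.5% and 20.8% of all genes, so that the lower share was near that over all genes. Among them were the phosphatases DUSP1 (1.16) and DUSP2 (1.72) and the inhibitor SPRY4 (0.76), and the ETS factor ETV1 (-1.09). In PD30, 4 (20%) were higher (2 without DMSO replicate 2) and 6 (30%) lower, near the 22.9% and 25.4% of all genes. Against PD30, 7 (35%) were higher and 5 (25%) lower in PD24 (3 lower without PD24 replicate 1), beside 12.9% and 12.2%.

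Secreted cytokines and their regulators were higher after withdrawal. Of 23 tested members of 32 listed, 12 (52.2%) were higher and 0 lower in PD24 than in DMSO (median 0.82), beside 17.5% and 20.8% of all genes. In PD30, 5 (21.7%) were higher and 3 (13%) lower (median 0.01), beside 22.9% and 25.4%, so the higher share was near that over all genes. In PD24 against PD30, 12 of 22 (54.5%) were higher and 1 lower, beside 12.9% and 12.2%. With the replicate block these counts were 15 and 1. Without DMSO replicate 3, 2 were lower than in DMSO. CSF2, the cytokine GM-CSF (GRCh37, chr5:131409482-131411863), had 0.366, 0.708 and 0.677 CPM in DMSO, 9.74, 4.77 and 4.33 in PD24 and 0.169, 0.14 and 0.364 in PD30. Those are 12, 20 and 21 reads in DMSO, 288, 112 and 175 in PD24 and 5, 5 and 13 in PD30, and the PD24 libraries stood far above the rest. It rose by 3.46 ± 0.40 (adjusted p = 0.0002) against DMSO and was 4.79 ± 0.45 (adjusted p = 0.00034) above PD30, while its lower value in PD30 than in DMSO (-1.33 ± 0.43, adjusted p = 0.03) was lost in 6 alternatives, 4 of them without DMSO replicate 2 or 3 or PD30 replicate 1 or 2. IL1B, interleukin-1 beta, had 2.71, 1.59 and 2.1 CPM in DMSO, 9.78, 3.96 and 2.9 in PD24 and 0.981, 0.391 and 0.504 in PD30. Its rise over DMSO (1.40 ± 0.44, adjusted p = 0.031) was lost without DMSO replicate 2 or 3 or PD24 replicate 1, and its difference from PD30 was 3.19 ± 0.52 (adjusted p = 0.0027). HBEGF, a ligand of the EGF receptor, had 23.7, 24.7 and 31.6 CPM in DMSO, 85.9, 49.5 and 41.1 in PD24 and 18.8, 21.9 and 28 in PD30 (1.18 ± 0.26, adjusted p = 0.0069). PD24 replicate 1 was the highest PD24 library for CSF2, IL1B and HBEGF.

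The list also holds 5 genes of the NF-κB pathway, named here after their values were seen. RELB and NFKB2, subunits of its alternative pathway, rose by 1.33 and 0.71, the inhibitors NFKBIA and TNFAIP3 rose by 0.56 and 0.90, and NFKB1, a subunit of the classical pathway, was at 0.09 (adjusted p = 0.52). In PD30 none of the 5 passed the test (0.23, 0.19, 0.01, 0.41 and -0.16). By contrast LIF, a cytokine of the interleukin-6 family, had 41.1, 47.9 and 43.1 CPM in DMSO, 118, 100 and 122 in PD24 and 92.5, 103 and 108 in PD30. ICAM1, an adhesion molecule for leukocytes, had 169, 160 and 147, then 555, 440 and 340, then 430, 455 and 362 CPM. Both were high with and without withdrawal (1.40 and 1.52 in PD24, 1.21 and 1.40 in PD30), and their PD24 and PD30 values overlapped.

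TIMP3, an inhibitor of matrix metalloproteinases, had 151, 133 and 144 CPM in DMSO, 632, 375 and 346 in PD24 and 253, 231 and 196 in PD30. The 3 groups did not overlap, and the change was 1.69 ± 0.21 (adjusted p = 0.00036) against DMSO and 1.01 ± 0.22 (adjusted p = 0.0094) against PD30. Of 43 tested collagen and matrix genes, 14 (32.6%) were higher and 4 (9.3%) lower in PD24 than in DMSO, beside 17.5% and 20.8% of all genes. Without DMSO replicate 2 the 14 became 8, and without PD24 replicate 1 it became 9. The higher count over all genes fell too, from 2639 to 1556 and 2227. In PD30, 9 (21.4%) were higher and 4 (9.52%) lower of 42 (8 lower without DMSO replicate 3), beside 22.9% and 25.4% of all genes. In PD24 against PD30, 11 (26.2%) were higher and 2 (4.76%) lower, beside 12.9% and 12.2%. With the replicate block they were 18 and 6, while the counts over all genes rose from 1963 and 1853 to 3120 and 2987. The 11 became 6 without PD24 replicate 1 or PD30 replicate 3 and 7 without PD30 replicate 1. COL27A1, a fibrillar collagen, rose by 1.40, and MMP2, a gelatinase, by 1.15 in PD24 and 1.16 in PD30.

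**Figure D2:**
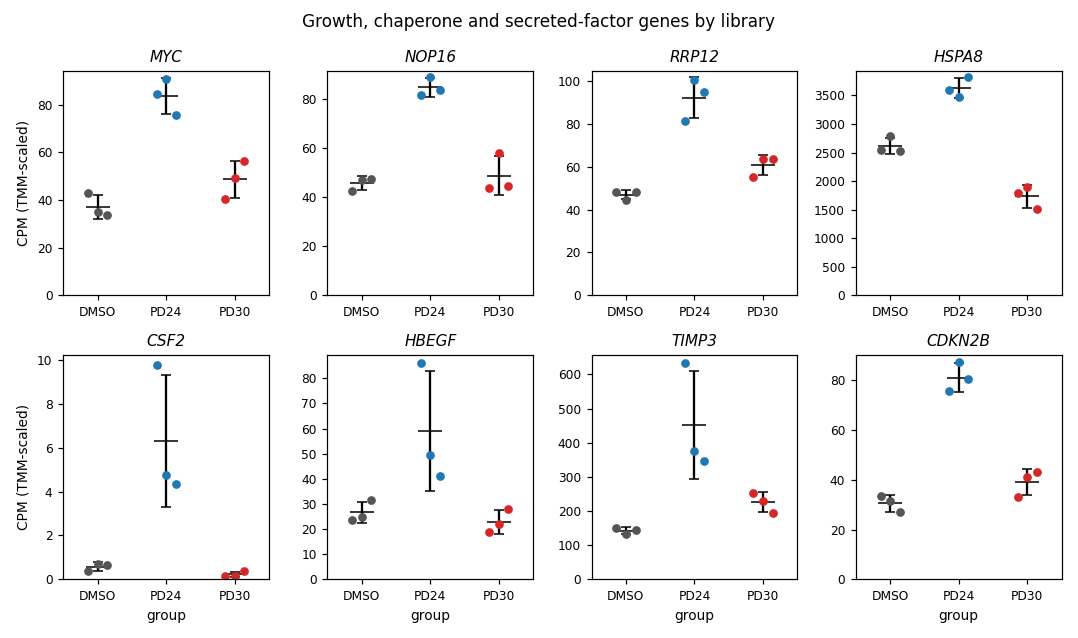
CPM of 8 growth and signalling genes (vertical axes, linear from 0) in the 3 DMSO, 3 PD24 and 3 PD30 libraries; points are libraries, bars means and error bars SD (n = 3). MYC stands at 75.8 to 90.9 CPM in PD24 against 33.9 to 43.1 in DMSO, and TIMP3 at 346 to 632 against 133 to 151.

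Cholesterol synthesis genes, which were raised as a group under continuous drug, stood lower after withdrawal, and 3 of them stood under the DMSO level. SREBP-2 (SREBF2) drives these genes when sterols in the endoplasmic reticulum are low, and INSIG1 holds SREBP-2 back. Of 25 tested genes of synthesis and uptake, 24 (96%) were higher and 0 lower in PD30 than in DMSO (median 1.86), beside 22.9% and 25.4% of all genes. In PD24, only 6 (24%) were higher and 3 (12%) lower (median 0.23), beside 17.5% and 20.8%. In PD24 against PD30, 22 (88%) were lower and 0 higher (median -1.45, 23 lower with the replicate block), beside 12.2% and 12.9%. Without PD24 replicate 1, 11 were higher than in DMSO, and without PD24 replicate 3, 9 were lower. INSIG1 was among the 3 lower genes. CYP51A1, which removes a methyl group from the first sterol, had 60.8, 69.4 and 68.3 CPM in DMSO, 79.3, 98.7 and 137 in PD24 and 273, 266 and 333 in PD30, in 3 separate ranges (0.70 ± 0.17, adjusted p = 0.013 against DMSO, 2.15 ± 0.11 in PD30 and -1.45 ± 0.18, adjusted p = 0.00094 between the drug groups).

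INSIG1 (GRCh37, chr7:155089486-155101945) was lower in PD24 and higher in PD30 than in DMSO, with 37.5, 41.1 and 55.1 CPM in DMSO, 12.6, 15.9 and 36.8 in PD24 and 184, 175 and 233 in PD30. The highest PD24 library was just under the lowest DMSO library. Its change of -1.0 ± 0.35 (adjusted p = 0.047) in PD24 lay at both thresholds and lost its call in 8 alternatives (3 of scaling or tool, and without any of the DMSO libraries, PD24 replicate 1 or PD24 replicate 2). Over the alternatives it ranged from -1.60 to -0.73 with a highest adjusted p of 0.14. Its difference from PD30, -3.15 ± 0.35 (adjusted p = 0.00058), held in every alternative. Some enzymes of the pathway stood between DMSO and PD30. DHCR7, the last enzyme of one branch, had 39.4, 38.5 and 34.2 CPM in DMSO, 52.6, 145 and 151 in PD24 and 243, 264 and 242 in PD30 (1.67 ± 0.33, adjusted p = 0.0041 against DMSO). Its difference from PD30, -1.08 (adjusted p = 0.034), lost its call with DESeq2's own test and without PD30 replicate 1, 2 or 3. MVD, a mevalonate enzyme, rose over DMSO by 1.32 (adjusted p = 0.012). LSS, which forms the first sterol, had 74.4, 84.9 and 76.8, then 83.4, 216 and 266, then 443, 511 and 515 CPM (1.29 ± 0.34, adjusted p = 0.015), with PD24 replicate 1 inside the DMSO range. SQLE, squalene epoxidase, had 51.9, 57.1 and 57.7 CPM in DMSO, 33.9, 37.8 and 69 in PD24 and 303, 320 and 366 in PD30, and overlapped DMSO (-0.21, adjusted p = 0.49). The sterol regulatory element searched as TCACNCCAC was in 1 of 17 matched promoters (5.88%), that of SREBF2, against 1.15% of all promoters, and CCAAT was in 13 (76.5%).

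PD24 replicate 1 had the lowest values of the cholesterol list in its group. The median over members of the log2 ratio to DMSO, from CPM with 0.5 added, was -0.39 in PD24 replicate 1, 0.35 in replicate 2 and 0.62 in replicate 3, beside 1.81, 1.73 and 1.97 in the PD30 libraries. The part of that library in the list's values was not tested. Genes of fatty acid synthesis followed in smaller steps. Of 17 tested, 7 (41.2%) were higher and 3 (17.6%) lower in PD24 than in DMSO (6 lower without PD24 replicate 3), beside 17.5% and 20.8% of all genes. In PD30, 13 (76.5%) were higher and 2 (11.8%) lower, beside 22.9% and 25.4%. In PD24 against PD30, 1 was higher and 9 (52.9%) lower, beside 12.9% and 12.2%. The 2 became 1 without DMSO replicate 2 or PD30 replicate 1 or 2, and the 1 higher became 2 without PD24 replicate 3. FADS2, a desaturase, had 63.4, 69.2 and 61.1 CPM in DMSO and 65.3, 238 and 293 in PD24, while FADS3, its relative, had 70.6, 66.8 and 74.7 in DMSO, 165, 198 and 169 in PD24 and 164, 168 and 173 in PD30. The PD24 and PD30 values of FADS3 overlapped, and their difference of 0.10 ± 0.11 did not pass the test (adjusted p = 0.53). ACACB, the mitochondrial acetyl-CoA carboxylase, was lower in both (-0.62 and -1.38), and ELOVL1, an elongase of long chains, higher in both (0.62 and 0.50).

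ABCA1, the transporter that exports cholesterol from the cell, was higher in PD24 and lower in PD30 than in DMSO, the reverse of INSIG1. It had 59.3, 58.5 and 57.5 CPM in DMSO, 165, 123 and 98.2 in PD24 and 12.1, 9.28 and 8.06 in PD30. No libraries overlapped between groups, and the change was 1.17 ± 0.17 (adjusted p = 0.00086) in PD24, -2.57 ± 0.15 (adjusted p = 7.6e-07) in PD30 and 3.74 ± 0.23 (adjusted p = 8.7e-05) between them. An antisense gene lies over part of ABCA1 (GRCh37, chr9:107543287-107690436).

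The other genes that were higher in PD24 and lower in PD30 than in DMSO were of varied function, and 17 of the 21 had a mean of at least 1 CPM in PD24 and DMSO. RGS4, a brake on G protein signalling, had 4.85, 5.27 and 6.61 CPM in DMSO, 31.5, 12.8 and 10.5 in PD24 and 1.15, 1.34 and 1.9 in PD30 (1.74 ± 0.39, adjusted p = 0.0071 and -1.91 ± 0.22, adjusted p = 0.00011). PD24 replicate 1 was again the highest, and the lowest PD24 library still stood above DMSO. TRAF1, an adaptor of TNF receptors, had 1.95, 1.56 and 2.19 CPM in DMSO, 5.01, 4.56 and 3.56 in PD24 and 0.44, 0.615 and 0.98 in PD30 (1.23 and -1.46). MT1E, a metallothionein, had 35.7, 36.7 and 44.2, then 118, 105 and 92.2, then 17.7, 21.4 and 17.9 CPM (1.47 and -1.02), but it may share reads with near-identical paralogs and is uncertain. The same caution holds for HSPA6, an inducible HSP70 (1.98 and -1.26), whose lower value in PD30 was also lost without DMSO replicate 1, PD30 replicate 1 or PD30 replicate 3. The potassium channel genes KCNN4 (1.48 and -1.28) and KCNF1 (1.56 and -1.19, the second lost without DMSO replicate 1), the synaptotagmin SYT12 (1.44 and -1.94), the receptor PAQR9 (1.24 and -1.96, the first lost without DMSO replicate 1) and the hormone ADM (1.01 and -1.04) were all under 22 CPM. In the reverse direction FRMPD4, a scaffold protein, had 2.19, 1.91 and 1.42 CPM in DMSO, 0.677, 0.426 and 0.742 in PD24 and 4.57, 4.05 and 2.49 in PD30 (-1.51 ± 0.28, adjusted p = 0.0028 and 1.01 ± 0.26, adjusted p = 0.011).

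Most lysosomal genes were higher than in DMSO in both drug groups. Of 48 tested genes of the lysosome and its proton pump, 36 (75%) were higher and 2 (4.17%) lower in PD24 than in DMSO (median 0.45). Over all genes these shares were 17.5% and 20.8%. In PD30, 40 (83.3%) were higher and 1 lower (median 0.73), beside 22.9% and 25.4%, and 34 were higher in both. Between PD24 and PD30, 1 was higher and 7 (14.6%) lower in PD24, beside 12.9% and 12.2% of all genes. The lower count was 23 with the replicate block, 15 without PD24 replicate 3 and 4 without PD30 replicate 1. Without DMSO replicate 2 the 36 became 21, and without DMSO replicate 1 or PD24 replicate 3 the 2 became 1. NEU1, a sialidase, had 58, 68.3 and 65.3 CPM in DMSO, 129, 180 and 213 in PD24 and 233, 230 and 219 in PD30 (1.48 ± 0.17, adjusted p = 0.00019). ASAH1, acid ceramidase, had 191, 215 and 207 CPM in DMSO, 401, 472 and 553 in PD24 and 650, 621 and 701 in PD30 (1.25 ± 0.12, adjusted p = 6.4e-05). In both, PD24 lay between DMSO and PD30. LIPA, the acid lipase, rose by 0.71, ATP6V0D1, a subunit of the proton pump, by 0.60, and the 2 lower genes were CTSK (-0.81) and GLA (-0.60), a protease and a galactosidase.

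Genes of the p53 pathway had 12 of 80 tested members (15%) higher and 25 (31.2%) lower in PD24 than in DMSO, beside 17.5% and 20.8% of all genes. In PD30, 19 (23.8%) were higher and 30 (37.5%) lower, beside 22.9% and 25.4%, so that the shares of higher members were near those over all genes. DDB2, a sensor of ultraviolet damage, had 32.9, 34.4 and 33.9 CPM in DMSO, 6.8, 6.39 and 7.47 in PD24 and 13.8, 10.4 and 14.4 in PD30. It was thus further from DMSO after withdrawal (-2.25 against -1.38, difference -0.88 ± 0.16, adjusted p = 0.005), as was BTG2, an antiproliferative gene (-1.75 against -1.02, difference -0.72, adjusted p = 0.016). POLH, a polymerase that copies past lesions, was at -1.62 and -1.63. GDF15, a stress cytokine, remained high, with 41.6, 50.9 and 30.2 CPM in DMSO, 70.1, 105 and 77.8 in PD24 and 73.8, 105 and 109 in PD30 (1.08 and 1.24). KITLG, the ligand of the receptor KIT, had 19.7, 19.4 and 22.4 CPM in DMSO, 17.2, 13.2 and 16.9 in PD24 (-0.34, adjusted p = 0.075) and 3.62, 2.68 and 2.15 in PD30 (-2.86, adjusted p = 2.1e-06). In PD24 against PD30, 10 of 78 members (12.8%) were higher and 13 (16.7%) lower, near the 12.9% and 12.2% of all genes. The lower count was 23 with the replicate block, 8 without PD24 replicate 1 and 7 without PD30 replicate 3.

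Of 33 tested stress and amino acid genes under ATF4, 4 (12.1%) were higher and 9 (27.3%) lower in PD24 than in DMSO, beside 17.5% and 20.8% of all genes, and 20 had no call. In PD30, 12 (36.4%) were higher and 3 (9.09%) lower, beside 22.9% and 25.4%, and 18 had no call. In PD24 against PD30, 2 were higher and 11 (33.3%) lower, beside 12.9% and 12.2% (3 and 19 with the replicate block). Without DMSO replicate 2 or 3 the 4 became 2, and without DMSO replicate 1 or PD30 replicate 3 the 3 lower in PD30 became 6. ATF4 itself had 229, 259 and 192 CPM in DMSO, 160, 146 and 131 in PD24 and 265, 306 and 375 in PD30, in 3 separate ranges (-0.60, adjusted p = 0.0061 and 0.49, adjusted p = 0.018). AARS, alanyl-tRNA synthetase, was at -0.73 in PD24 and -0.11 (adjusted p = 0.22) in PD30, CEBPG, a partner of ATF4, at -0.83 and -0.24 (adjusted p = 0.17), and MTHFD2, a folate enzyme of the mitochondrion, was lower in both (-0.96 and -0.90). STC2, a secreted stress protein, was higher in both (1.12 and 0.99). In the unfolded protein response, 1 of 20 genes (5%) was higher in PD24 (SEC61B, 0.55, lost without DMSO replicate 3 or PD24 replicate 1 or 2). The 2 lower genes (10%) were the chaperones HSP90B1 (-0.60) and PDIA4 (-0.43). Over all genes 17.5% were higher and 20.8% lower in PD24. In PD30, 9 (45%) were higher and 3 (15%) lower, beside 22.9% and 25.4% of all genes. Against PD30, 0 were higher and 3 (15%) lower in PD24, beside 12.9% and 12.2%, and 3 and 7 with the replicate block. Without PD24 replicate 3 the higher and lower counts were 2 and 5, and without PD30 replicate 2 they were 1 and 1. Without PD30 replicate 1 or 3 the lower count was 1.

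Of 41 tested interferon-response genes, 4 (9.76%) were higher and 11 (26.8%) lower in PD24 than in DMSO, beside 17.5% and 20.8% of all genes, so that the lower share was near that over all genes. Without DMSO replicate 2 these counts were 1 and 7, and without PD24 replicate 1, 2 were higher. In PD30, 2 were higher and 22 (53.7%) lower, beside 22.9% and 25.4%, and all 11 lower in PD24 were among the 22. Against PD30, 11 of 40 (27.5%) were higher in PD24 and 1 lower, beside 12.9% and 12.2% (17 higher with the replicate block). OAS3, an antiviral enzyme, had 89.2, 94.1 and 99 CPM in DMSO, 33.7, 35.2 and 36 in PD24 and 31.7, 29.3 and 31.9 in PD30, so it stayed low (-1.39 and -1.59), as did PLSCR1 (-1.26 and -1.24), a scramblase, and HERC5 (-1.30 and -1.53), the ligase of ISG15. In antigen processing, 4 of 18 genes (22.2%) were higher and 1 (5.56%) lower in PD24 (2 higher without DMSO replicate 2), beside 17.5% and 20.8% of all genes. In PD30, 5 (27.8%) were higher and 4 (22.2%) lower, beside 22.9% and 25.4%. The higher shares were thus near those over all genes. NLRC5, the activator of MHC class I genes, was at 0.88 and 0.71, HLA-E at 0.54 and 0.69, and the peptidase ERAP1 at -0.57 and -0.54. Against PD30, 1 (5.56%) was higher and 0 lower in PD24, beside 12.9% and 12.2% of all genes. With the replicate block the counts were 6 and 1. The higher count was 5 without PD24 replicate 3 and 0 without PD30 replicate 1.

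Of 31 glycolysis and hypoxia genes tested, 10 (32.3%) were higher and 2 (6.45%) lower in PD24 than in DMSO, beside 17.5% and 20.8% of all genes. The 10 became 6 without DMSO replicate 2, where the higher count over all genes also fell, from 2639 to 1556. The 2 became 1 without DMSO replicate 1 or 2. In PD30, 11 (35.5%) were higher and 7 (22.6%) lower, beside 22.9% and 25.4% of all genes, and the 7 became 3 without PD30 replicate 3. In PD24 against PD30, 7 (22.6%) were higher and 4 (12.9%) lower, beside 12.9% and 12.2%, and 11 and 6 with the replicate block. That 7 became 4 without PD24 replicate 1 or PD30 replicate 3 and 3 without PD30 replicate 1. HK2, a hexokinase, had 47.1, 45.9 and 56.7 CPM in DMSO, 89, 77.3 and 84.9 in PD24 and 42.5, 40.7 and 46.4 in PD30 (0.78 ± 0.11, adjusted p = 0.00083 against DMSO). PFKFB3, which makes the activator of phosphofructokinase, was likewise higher in PD24 (0.56, adjusted p = 0.002) and at 0.04 (adjusted p = 0.72) in PD30. NDRG1, induced by hypoxia, was higher in both (1.07 and 0.57). Of 19 tested replication-dependent histone genes, 4 (21.1%) were higher and 5 (26.3%) lower in PD24 than in DMSO. In PD30 the counts were again 4 and 5, with 2 higher and 5 lower in both. The shares were near those over all genes, 17.5% and 20.8% in PD24 and 22.9% and 25.4% in PD30. The 4 in PD30 became 1 without DMSO replicate 2 or 3 or PD30 replicate 1 or 2 and 7 without DMSO replicate 1, and the 5 became 8 without DMSO replicate 3. These near-identical paralogs may share reads.

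The 10 largest rises over DMSO among genes with no overlap were mostly of low level. Genes raised in both drug groups included FABP3, a fatty acid binding protein, with 1.4, 1.49 and 1.74 CPM in DMSO, 6.06, 20.8 and 33.2 in PD24 and 36.1, 40 and 39 in PD30 (3.73 ± 0.54, adjusted p = 0.00082 and 4.64 ± 0.13). Its PD24 libraries spread widely, and the lowest was replicate 1. IFITM10, a membrane protein gene that overlaps a readthrough gene on its strand, had 2.84, 1.88 and 1.61 CPM in DMSO, 20.1, 26.1 and 25.3 in PD24 and 12.6, 10.3 and 10.3 in PD30 (3.53 ± 0.22, adjusted p = 3.8e-06), and was higher in PD24 than in PD30 by 1.13 (adjusted p = 0.0012). ACTC1, cardiac actin, had 2.87, 1.42 and 0.742 CPM in DMSO, 29.3, 20.3 and 15.2 in PD24 and 7.68, 5.95 and 2.94 in PD30 (3.71 ± 0.42, adjusted p = 0.0002). CLDN14, a tight junction claudin, had 0.152, 0.0354 and 0.161 CPM in DMSO, 1.62, 2.34 and 2.97 in PD24 and 0.237, 0.28 and 0.42 in PD30, and was 2.89 higher in PD24 than in PD30 (adjusted p = 0.00063). GRIA1, a glutamate receptor subunit (4.33), FSCN2, an actin bundler (4.32), ANKRD30BL (4.25), C1orf98 (3.31) and SPINK1, a trypsin inhibitor (3.30), had DMSO levels under 0.5 CPM, so that their fitted changes rest on few DMSO reads.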

How the data were processed

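RNA of SJSA-1 cells was sequenced in 3 libraries per group. Per the labels and the study's methods, the authors aligned the reads to hg19 with TopHat and Bowtie2 and counted them per gene with HTSeq 0.6.0 under its reverse-strand setting. The kit's strandedness is not given in the sources used here. Of 149 genes looked up with 1 position, 86 overlapped a gene on the opposite strand and 38 one on the same strand. Overlaps are named beside only a few results, so a gene without a remark may also have one. The deposited table, although named for variance-stabilised values, holds whole counts (23368 genes, of which 28 carry date-like names), and all its sample columns were mapped. Whole counts were fitted in R 4.3.3 with edgeR 4.0.16 (filterByExpr, TMM, quasi-likelihood test, Benjamini-Hochberg adjustment), separately for PD24 against DMSO, PD30 against DMSO and PD24 against PD30. Genes were called at an adjusted p under 0.05, with or without an absolute log2 fold change of 1. The script was tested on simulated data. Levels are CPM scaled by TMM over the 9 libraries of these groups and are not divided by gene length, so they are compared between libraries and not between genes.

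The genes named are the 10 largest falls and rises (no overlap, mean of at least 1 CPM), the 10 largest opposite-sense changes each way, a fixed set of cell-cycle genes, and the 4 members of each list with the lowest p; other list members were named after their values were seen. Members and lists were chosen with earlier results of these data known. Of 25 mitochondrially encoded genes, 0 were matched. PD24 and PD30 replicate numbers were taken as pairs because deviations from the group means correlated within every number (r = 0.255, 0.453 and 0.237), and less between unlike numbers. DMSO with PD24 was also positive within every number (0.084, 0.134 and 0.496), but DMSO replicate 1 correlated more with PD24 replicate 2 (0.392). DMSO with PD30 gave -0.092, 0.268 and 0.253. This pairing was inferred from the same data and is not stated in the labels. Gene positions are GRCh37, and promoter sequences are RefSeq windows of 300 bases around the first listed start in GRCh38.p14. Alternatives were other scalings, DESeq2 1.42.0, no filter, a replicate block, 1 joint fit and leaving out each library. A few genes are not reported here.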

Additional observations from a re-analysis of the deposited data

How the results depend on the processing

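With the adjusted p alone, 2639 genes were higher and 3142 lower in PD24 than in DMSO, 3468 and 3839 in PD30 than in DMSO, and 1963 and 1853 in PD24 than in PD30. Genes changed in the same sense in both drug groups were then 1533 higher and 2240 lower, and those in the opposite sense 126 and 120 (this last alternative was chosen after seeing the data). The 21 genes in the opposite sense that were higher in PD24 numbered 12 to 22 when single libraries were left out and 16 to 20 under the other settings with both thresholds. The 4 that were lower in PD24 numbered 2 with DESeq2's size factors, 2 with DESeq2's own test, and 2 to 10 when single libraries were left out, so this small count depends on the setting. With the replicate block on the PD24 and PD30 libraries taken as pairs, 662 genes were higher and 564 lower with both thresholds (618 and 519 without it), and 3120 and 2987 with the adjusted p alone. Blocks on DMSO numbers, which were not taken as pairs, were within 1.5 times the counts without them. Over all alternatives no named gene reversed where it passed the test in either fit: 5467 gene values kept their side of the threshold, 132 lost their call and 56 gained one, while 41 changes without a call included 0 in their range, and of the counts of list members called, 172 moved by over 1.5 times and 1700 did not. Across scalings the median log2 change of all genes in PD24 against DMSO was at most 0.077. The limits are 3 libraries a group, 1 cell line and 1 time after withdrawal, with no record of medium changes. Genes under 1 CPM rest on few reads, and their fitted changes depend on the prior count.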
